A study of Mus musculus with 12 samples.

Results

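The type I interferon pathway was examined as 9 genes of the 55471 in a count table of mouse bone marrow-derived dendritic cells (DCs). *Ifnar1* and *Ifnar2* encode the receptor, *Jak1* and *Tyk2* the kinases bound to it, and *Stat2* the signal transducer. *Usp18*, *Socs1* and *Socs3* are negative feedback genes, and *Jak2* encodes a related kinase that serves other receptors. The genes were chosen by symbol, 1 row each, and all 9 passed the filter on low counts that left 18228 genes for testing. C57BL/6 bone marrow was cultured with granulocyte-macrophage colony-stimulating factor to give DCs, and a retroviral vector brought in both a short hairpin RNA and a human CD8 reporter, on which transduced cells were sorted. The hairpin targeted firefly luciferase (shControl) or *Ppargc1b* (sh*Ppargc1b*), the gene of the mitochondrial co-activator PGC-1β. Cells of each kind received interferon-β (IFN-β) for 6 h or stayed unstimulated, which gave 4 groups of 3 libraries. All cells therefore carried the vector and a hairpin, and the model is a knockdown: *Ppargc1b* fell, without IFN-β, from 34.5 ± 1.94 CPM (counts per M library counts, after scaling of library sizes) in shControl to 19.4 ± 0.851 CPM in sh*Ppargc1b* cells (adjusted p = 3.2e-05), and was at 27.8 ± 3.93 and 18.7 ± 2.83 CPM with IFN-β (SD, n = 3 each).

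IFN-β binds a receptor of 2 chains, IFNAR1 and IFNAR2, which carry the kinases TYK2 and JAK1 on their inner side. The kinases phosphorylate STAT proteins, and STAT2 enters the nucleus with partners that bind the interferon-stimulated response element (ISRE) of antiviral genes. JAK2 serves other cytokine receptors, among them those for IFN-γ and granulocyte-macrophage colony-stimulating factor, so it is a neighbour of the IFN-β receptor rather than a subunit of it. Feedback comes from USP18, which removes the ubiquitin-like modifier ISG15 from proteins and also blocks signalling at IFNAR2, from SOCS1, which inhibits JAK kinases, and from SOCS3, which acts mostly on receptors of the interleukin-6 family.

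The promoters of the genes were searched because the response to IFN-β is written in short DNA elements. The 250 bases before the start site were read from a set of RefSeq promoters (GRCm38.p6), in which 8 of the 9 genes were matched by symbol. No entry was matched for *Usp18*. Searched on both strands were the ISRE letters (GAAA, any 2 bases, GAAA) and the letters TTCNNNGAA of the gamma-activated site (GAS), the element bound by STAT dimers. The ISRE letters were present in 2.98% and the GAS letters in 7.02% of 32851 promoters of that length. Among the 8 genes, *Stat2* and *Socs1* held the ISRE letters and *Ifnar2* and *Socs3* the GAS letters, whereas the windows of *Ifnar1*, *Jak1*, *Jak2* and *Tyk2* held neither. The 4 matching stretches are shown 5′ to 3′ on the strand of the gene, with capitals for the fixed letters of the motif. In *Stat2* the match is on the opposite strand and lies 222 to 213 bases before the start, in *Socs1* 2 overlapping matches lie 83 to 68 bases before it, and the GAS matches lie 154 to 146 bases before the start of *Socs3* and 214 to 206 bases before that of *Ifnar2*. Starts are those of RefSeq. The span that GENCODE gives for *Socs3*, used below, reaches further upstream, so the stretch shown for *Socs3* lies within that span, outside its exons. A match of letters is a description and not a measured binding site.
Stat2, chr10:128270251-128270310, plus strand: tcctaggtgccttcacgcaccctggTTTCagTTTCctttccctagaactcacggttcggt
Socs1, chr16:10785579-10785644, minus strand: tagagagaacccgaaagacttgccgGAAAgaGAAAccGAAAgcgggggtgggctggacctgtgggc
Socs3, chr11:117969487-117969545, minus strand: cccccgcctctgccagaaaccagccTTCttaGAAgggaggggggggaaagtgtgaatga
Ifnar2, chr16:91372544-91372602, plus strand: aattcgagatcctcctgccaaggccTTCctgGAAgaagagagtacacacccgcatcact

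Library totals ranged from 49.9 to 77.7 M counts. Factors of the trimmed mean of M-values (TMM) lay between 0.914 and 0.941 with IFN-β and between 1.07 and 1.09 without it. Of 10 dendritic-like markers 9 passed the filter on low counts. *Itgax*, which encodes CD11c, had 901 to 1182 CPM over the libraries, the MHC class II genes *Cd74*, *H2-Aa* and *H2-Ab1* had 1905 to 2856, 938 to 1350 and 552 to 780.1 CPM, *Irf4* had 189 to 363, *Ccr7* 48.2 to 238, *Zbtb46* 16.5 to 33.5, *Batf3* 8.67 to 13.3 and *Flt3* 1.45 to 3.81 CPM, and *Cd209a* had at most 11 counts. The labels do not say whether libraries came from separate mice or cultures, so p-values measure the spread between these libraries, which may be technical. They also give no replicate numbers, and those used below follow the order of library codes within each group.

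To determine how the pathway itself responds to IFN-β, treated cells were compared with unstimulated cells within each hairpin. All 9 genes rose in shControl and all 9 rose in sh*Ppargc1b* cells. The background is high, since 48.2% of tested genes had an adjusted p under 0.05 in shControl (23.7% were higher) and 42.6% in sh*Ppargc1b* cells (21.4% were higher). The median log2 fold change of the 9 genes was 0.92 in shControl, where that of all tested genes was -0.03, and 0.56 in sh*Ppargc1b* cells, where that of all was -0.02. The sizes fell into steps: *Usp18*, *Stat2* and *Socs1* rose by more than 1 on the log2 scale in both kinds of cell, and the other 6 genes by less than 1. When libraries were scaled by their totals alone, the median of all genes shifted to -0.27 and -0.22, and the smaller responses shrank by more than 1.5 times. In shControl and sh*Ppargc1b* cells those of *Ifnar1* were then 0.24 and 0.15, of *Ifnar2* 0.25 and 0.22, of *Jak1* 0.16 and 0.20 and of *Socs3* 0.31 and 0.16, and that of *Jak2* in sh*Ppargc1b* cells was 0.35. All 9 genes passed in shControl with that scaling and all but *Socs3* in sh*Ppargc1b* cells.

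**Figure D1:**
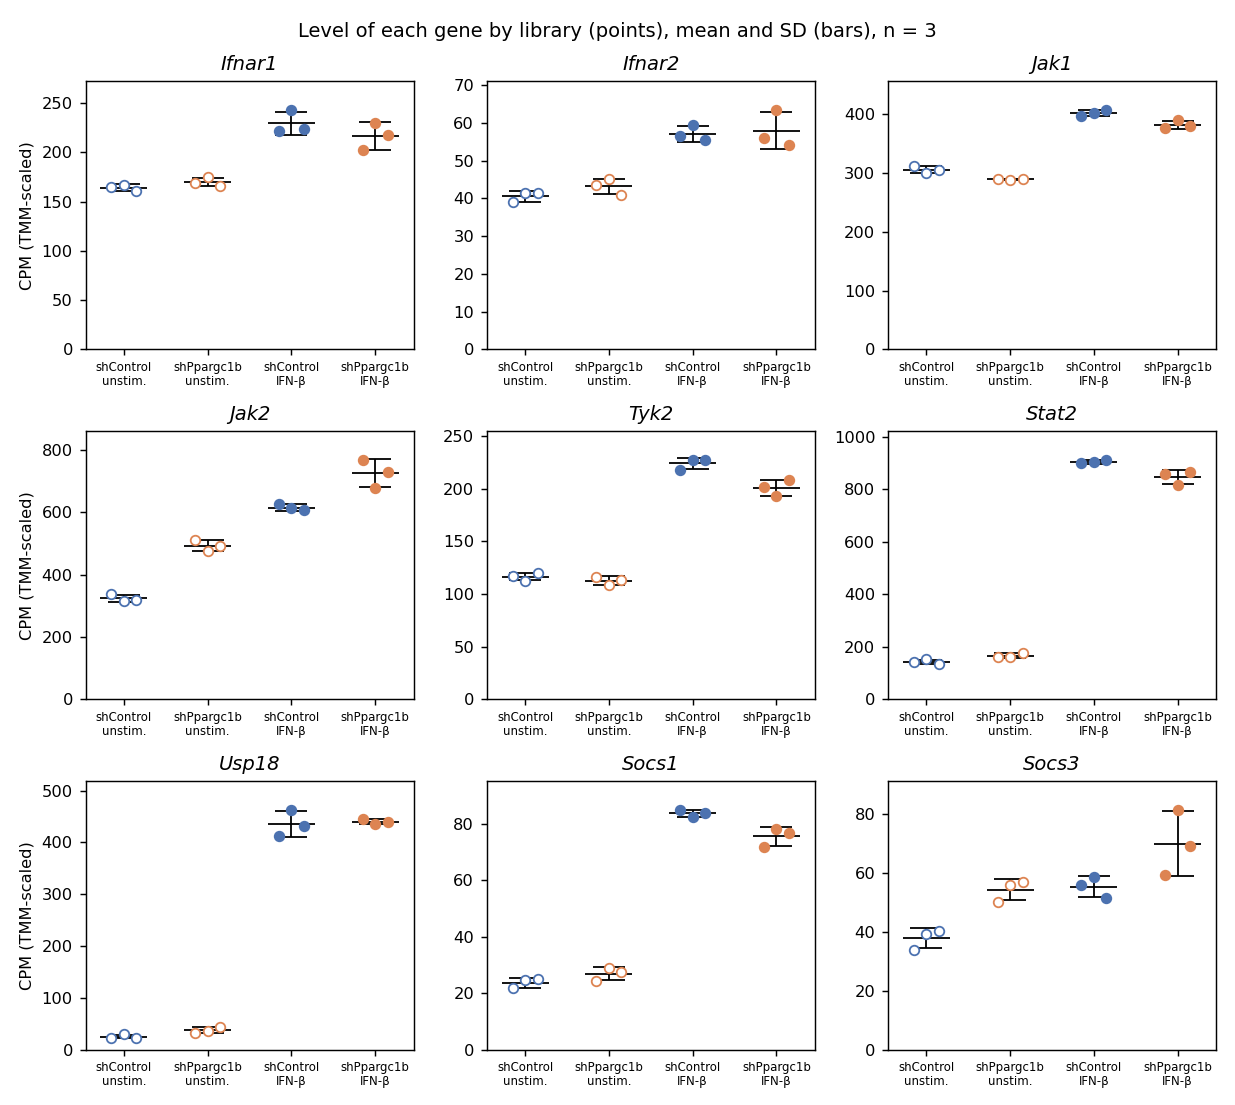
Level of each of the 9 genes in CPM (y axis, linear from 0) in the 4 groups (x axis), with 1 point per library and bars for the mean and SD of 3 libraries. In each gene every IFN-β library lies above every unstimulated library of the same hairpin, and in *Jak2* all 4 groups are separate.

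Both receptor chains rose, by similar amounts. *Ifnar1* (ENSMUSG00000022967, chromosome 16, 91485238 to 91507441, plus strand, GRCm38) had 165, 167 and 160.4 CPM in unstimulated and 221, 243 and 224 CPM in treated shControl libraries. In sh*Ppargc1b* libraries *Ifnar1* had 169, 175 and 166 CPM without and 202, 229.9 and 217 CPM with IFN-β. The groups thus parted by treatment, while the hairpins overlapped within each treatment. The log2 fold change was 0.48 ± 0.05 in shControl (SE, adjusted p = 7.4e-07) and 0.35 ± 0.05 in sh*Ppargc1b* cells (adjusted p = 3.2e-05). *Ifnar2* (ENSMUSG00000022971, 91372783 to 91405589, plus strand) lies on the same chromosome and had 38.9, 41.3 and 41.4 CPM in unstimulated and 56.5, 59.3 and 55.3 CPM in IFN-β-treated shControl libraries. Its levels in sh*Ppargc1b* libraries were 43.4, 45.0 and 40.9 CPM without and 56.0, 63.4 and 54.2 CPM with IFN-β, which overlapped those of shControl in both treatments. A gene on the same strand, *Gm21970*, shares 315 exon bases with *Ifnar2* and had 0 counts over all libraries, and reads over those bases cannot be assigned with certainty. *Ifnar2* rose by 0.49 ± 0.06 (adjusted p = 4.4e-06) in shControl and by 0.42 ± 0.06 (adjusted p = 2.7e-05) in sh*Ppargc1b* cells. Between and beside the receptor genes on chromosome 16 lie *Il10rb* (91406164 to 91425834), a chain of the interleukin-10 and IFN-λ receptors, and *Ifngr2* (91547072 to 91565623), a chain of the IFN-γ receptor. These neighbours were picked for their position after their values were seen. *Il10rb* rose by 0.53 and 0.45 and *Ifngr2* by 0.42 and 0.30 on the log2 scale in shControl and sh*Ppargc1b* cells (0.29 and 0.25, and 0.18 and 0.09, with library totals alone).

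The kinases rose by different amounts. *Jak1* (ENSMUSG00000028530, chromosome 4, 101152367 to 101265282, minus strand), the kinase of the IFNAR2 chain, had 311, 299.5 and 306 CPM in unstimulated and 397, 402 and 408 CPM in IFN-β-treated shControl libraries. The levels of *Jak1* in sh*Ppargc1b* libraries were 289, 288 and 289.9 CPM without and 377, 390.4 and 379 CPM with IFN-β. No groups of *Jak1* overlapped, and its response was 0.40 ± 0.03 on the log2 scale in shControl (adjusted p = 8.8e-08) and 0.40 ± 0.03 in sh*Ppargc1b* cells (adjusted p = 1.0e-07). *Tyk2* (ENSMUSG00000032175, chromosome 9, 21104068 to 21131243, minus strand), the kinase of the IFNAR1 chain, had 117, 113 and 119.8 CPM without and 218, 227 and 227 CPM with IFN-β in shControl libraries. In sh*Ppargc1b* libraries its levels were 116, 108 and 114 CPM without and 201, 193 and 208 CPM with IFN-β. The hairpins overlapped in unstimulated *Tyk2* and parted with IFN-β, where sh*Ppargc1b* was the lower. *Tyk2* rose by 0.94 ± 0.04 (adjusted p = 3.4e-11) in shControl and by 0.83 ± 0.04 (adjusted p = 2.2e-10) in sh*Ppargc1b* cells. An antisense gene, *1700084C06Rik*, shares 554 exon bases with *Tyk2* and had 182 counts over all libraries against 113059 for *Tyk2*.

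*Jak2* (ENSMUSG00000024789, chromosome 19, 29251828 to 29313080, plus strand) was at 337, 315 and 319.9 CPM without and at 625, 613 and 606 CPM with IFN-β in shControl libraries. In sh*Ppargc1b* libraries *Jak2* started at 509.6, 477 and 492 CPM and reached 767, 679 and 729.8 CPM with IFN-β. From low to high the groups were unstimulated shControl, unstimulated sh*Ppargc1b*, treated shControl and treated sh*Ppargc1b*, and no neighbours overlapped. The response to IFN-β was 0.92 ± 0.05 in shControl (adjusted p = 1.8e-10) and 0.56 ± 0.05 in sh*Ppargc1b* cells (adjusted p = 1.1e-07).

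*Stat2* (ENSMUSG00000040033, chromosome 10, 128270559 to 128292849, plus strand), the transducer specific to type I and type III interferons, rose several fold. It had 142, 152 and 136 CPM without and 898, 905 and 912 CPM with IFN-β in shControl libraries. The levels in sh*Ppargc1b* libraries were 162, 159.9 and 177 CPM without and 857, 815 and 864 CPM with IFN-β. The hairpins did not overlap in either treatment and changed places: sh*Ppargc1b* was the higher without and the lower with IFN-β. *Stat2* rose by 2.66 ± 0.05 (6.32-fold, adjusted p = 3.0e-15) in shControl and by 2.35 ± 0.05 (5.09-fold, adjusted p = 1.1e-14) in sh*Ppargc1b* cells.

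Of the negative feedback genes, *Usp18* (ENSMUSG00000030107, chromosome 6, 121245906 to 121270917, plus strand) had the largest response of the 9 genes in both kinds of cell. In shControl libraries *Usp18* went from 23.2, 29.4 and 23.1 CPM to 413, 462 and 432 CPM. In sh*Ppargc1b* libraries the levels were 32.8, 36.1 and 43.9 CPM without and 444, 436 and 440.1 CPM with IFN-β. Unstimulated sh*Ppargc1b* libraries were all above unstimulated shControl, whereas the treated groups overlapped. The rise was 4.11 ± 0.11 (17.2-fold, adjusted p = 4.0e-14) in shControl and 3.55 ± 0.10 (11.7-fold, adjusted p = 2.0e-13) in sh*Ppargc1b* cells, which ranked 97 and 107 among the rises of all tested genes. A lincRNA on the other strand, *Gm44148*, shares 124 exon bases with *Usp18* and had 242 counts against 157386.

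*Socs1* (ENSMUSG00000038037, chromosome 16, 10782240 to 10785536, minus strand), far from the receptor genes on that chromosome, had 21.7, 24.6 and 24.9 CPM without and 84.9, 82.5 and 83.8 CPM with IFN-β in shControl libraries. Its levels in sh*Ppargc1b* libraries were 24.3, 29.0 and 27.5 CPM without and 71.8, 78.2 and 76.8 CPM with IFN-β. The hairpins overlapped in unstimulated cells and parted in treated cells, with sh*Ppargc1b* below shControl. *Socs1* rose by 1.82 ± 0.07 (3.53-fold, adjusted p = 2.3e-12) in shControl and by 1.49 ± 0.06 (2.80-fold, adjusted p = 3.3e-11) in sh*Ppargc1b* cells.

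*Socs3* (ENSMUSG00000053113, chromosome 11, 117966079 to 117970047, minus strand) moved less than *Socs1*, with a larger SE. It had 33.9, 39.1 and 40.4 CPM without and 55.9, 58.7 and 51.3 CPM with IFN-β in shControl libraries. With the *Ppargc1b* hairpin the levels were 50.2, 55.8 and 56.7 CPM without and 59.3, 81.3 and 69.1 CPM with IFN-β. Unstimulated sh*Ppargc1b* libraries overlapped the IFN-β-treated shControl libraries, and the treated sh*Ppargc1b* libraries were above all others. *Socs3* rose by 0.55 ± 0.10 (adjusted p = 2.1e-04) in shControl and by 0.37 ± 0.09 (adjusted p = 0.0055) in sh*Ppargc1b* cells. The second of these calls was lost when libraries were scaled by their totals alone (0.16, adjusted p = 0.162), with adjusted p from 3.7e-08 to 0.162 across the alternatives.

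**Figure D2:**
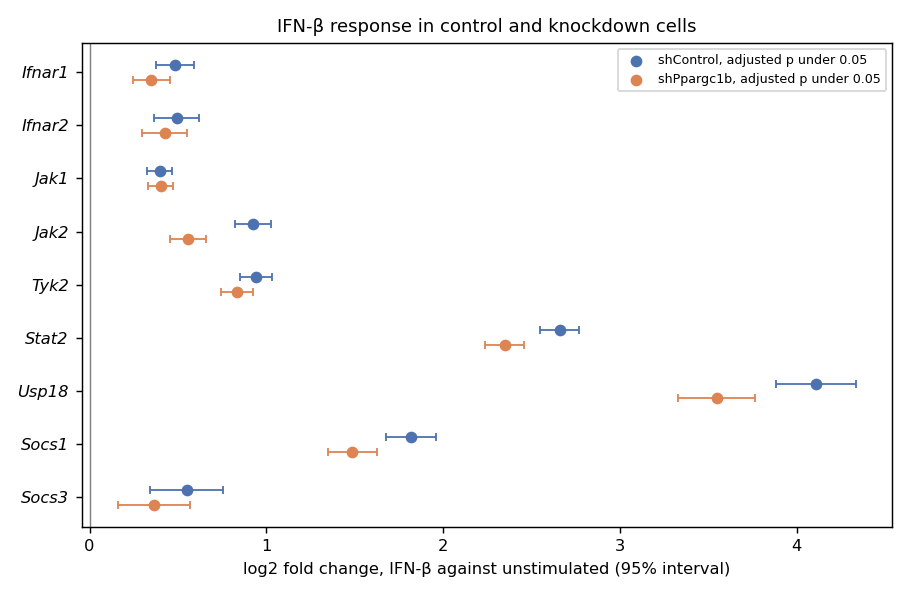
Log2 fold change of each gene with IFN-β against unstimulated cells (x axis) in shControl and sh*Ppargc1b* cells, with 95% intervals, and all points past the threshold. The responses run from 0.40 for *Jak1* to 4.11 for *Usp18* in shControl, and 8 of 9 points of sh*Ppargc1b* lie to the left of those of shControl.

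Levels of the 9 genes were compared with each other only as RPKM, a level scaled to length, which is CPM divided by the exon length of each gene in kilobases. In unstimulated shControl cells the highest level was that of *Jak2* (64.4 ± 2.26 RPKM) and the next that of *Jak1* (42.3 ± 0.820 RPKM), and the lowest were those of *Usp18* (9.05 ± 1.29 RPKM) and *Socs1* (8.16 ± 0.598 RPKM). *Ifnar1* (27.6 ± 0.564 RPKM) was above *Ifnar2* (12.2 ± 0.415 RPKM), its partner chain. After IFN-β the order in shControl cells was led by *Usp18* (156 ± 8.99 RPKM), *Stat2* (153 ± 1.15 RPKM) and *Jak2* (122 ± 2.0 RPKM), so *Usp18* moved from next to last to first, although its lead over *Stat2* was smaller than its own SD. *Ifnar2* was then the lowest, with 17.1 ± 0.620 RPKM. In treated sh*Ppargc1b* cells *Usp18* (158 ± 1.46 RPKM), *Jak2* (144 ± 8.86 RPKM) and *Stat2* (143 ± 4.48 RPKM) were again the highest, and *Jak2* and *Stat2* differed by less than their SD.

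**Figure D3:**
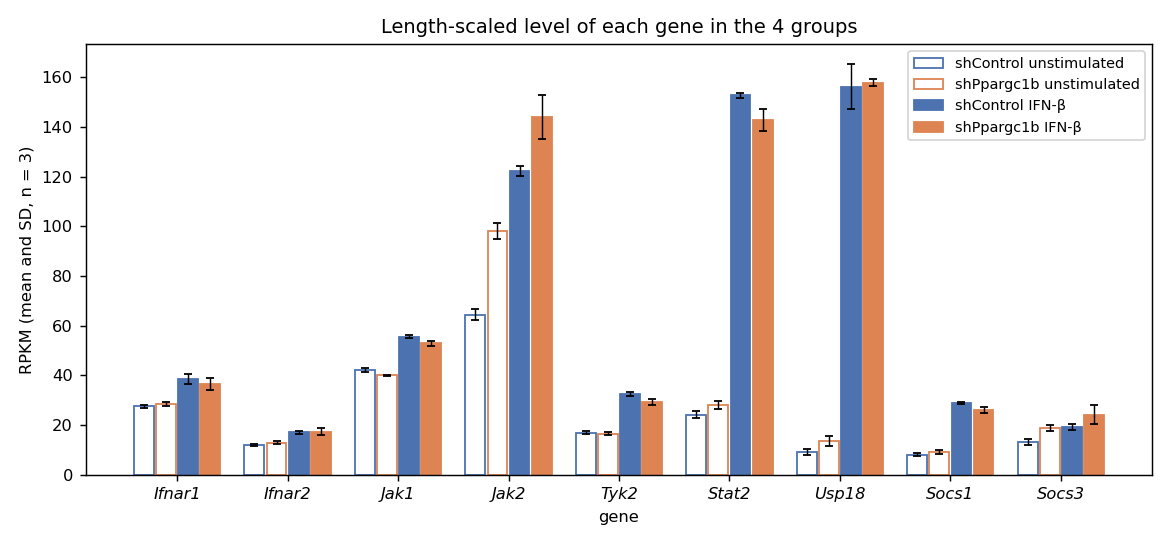
Level of each gene in RPKM (y axis, linear from 0) in the 4 groups, as the mean and SD of 3 libraries. *Usp18* and *Stat2* stand among the lower or middle genes without IFN-β and reach 156 and 153 RPKM with it in shControl cells, beside *Jak2* at 122 RPKM.

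To examine how the knockdown changed the pathway before any added cytokine, unstimulated sh*Ppargc1b* cells were compared with unstimulated shControl cells. A total of 4 of the 9 genes rose (*Jak2*, *Usp18*, *Socs3* and *Stat2*), none fell and 5 did not pass, where 23.6% of all tested genes passed (12.4% higher and 11.1% lower). *Jak2* rose by 0.61 ± 0.05 on the log2 scale (1.52-fold, adjusted p = 3.4e-07), *Usp18* by 0.58 ± 0.10 (1.49-fold, adjusted p = 5.0e-04), *Socs3* by 0.52 ± 0.10 (1.44-fold, adjusted p = 9.1e-04) and *Stat2* by 0.21 ± 0.05 (1.16-fold, adjusted p = 0.0048). In each of these genes all 3 sh*Ppargc1b* libraries were above all 3 shControl libraries. *Socs1* had 0.18 (95% interval 0.04 to 0.33) and missed the threshold (adjusted p = 0.0566), which it passed without sh*Ppargc1b* unstimulated replicate 1 (0.25, adjusted p = 0.00861). Across the alternatives the adjusted p of *Socs1* was 0.00861 to 0.251. The receptor chains had 0.05 (-0.05 to 0.16, adjusted p = 0.527) for *Ifnar1* and 0.09 (-0.04 to 0.22, adjusted p = 0.319) for *Ifnar2*. *Jak1* had -0.08 (-0.15 to -0.01, adjusted p = 0.109), with all sh*Ppargc1b* libraries below shControl, and *Tyk2* had -0.05 (-0.14 to 0.04, adjusted p = 0.463).

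With IFN-β, *Jak2* and *Socs3* were again higher in sh*Ppargc1b* cells, *Tyk2* was lower and 6 genes did not pass, where 24.2% of all tested genes passed (11.5% higher and 12.7% lower). The difference of *Jak2* was 0.24 ± 0.05 (1.18-fold, adjusted p = 0.0015). That of *Socs3* was 0.34 ± 0.10 (1.27-fold, adjusted p = 0.0165), and it rested on single libraries: without shControl IFN-β replicate 3 it was 0.28 (adjusted p = 0.0900) and without sh*Ppargc1b* IFN-β replicate 2 it was 0.21 (adjusted p = 0.0926), in a range of 5.9e-08 to 0.0926 over all alternatives. *Tyk2* fell by 0.16 ± 0.04 on the log2 scale (adjusted p = 0.0108). *Usp18* had 0.01 (95% interval -0.18 to 0.21, adjusted p = 0.934), *Stat2* had -0.10 (-0.20 to 0.01, adjusted p = 0.169) and *Socs1* had -0.15 (-0.28 to -0.01, adjusted p = 0.106). *Jak1* had -0.07 (-0.14 to -0.00, adjusted p = 0.138), *Ifnar1* had -0.08 (-0.19 to 0.02, adjusted p = 0.250) and *Ifnar2* had 0.02 (-0.10 to 0.15, adjusted p = 0.837).

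**Figure D4:**
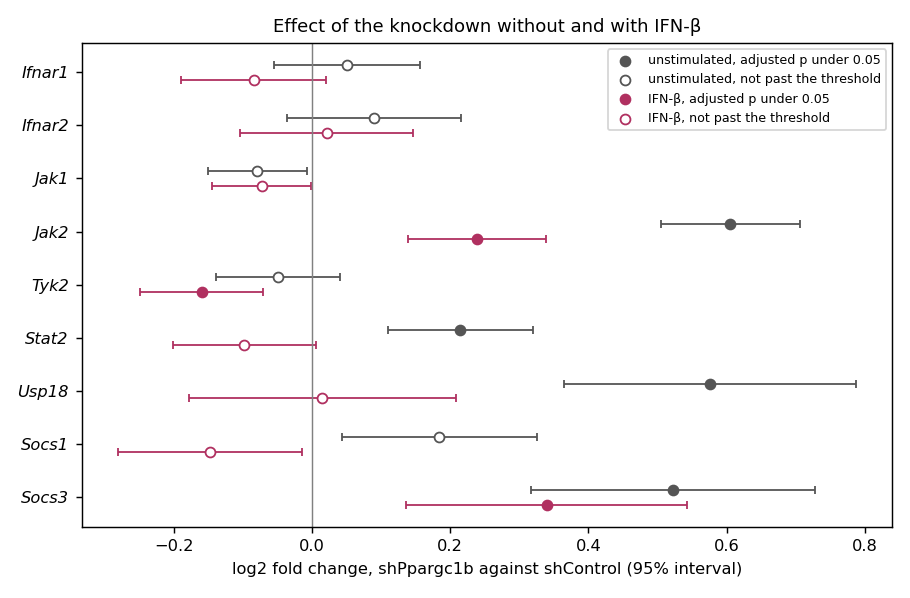
Log2 fold change of each gene in sh*Ppargc1b* against shControl cells (x axis) without and with IFN-β, with 95% intervals, where filled points passed an adjusted p of 0.05. *Jak2*, *Stat2*, *Usp18* and *Socs3* are filled without IFN-β, and *Jak2*, *Tyk2* and *Socs3* with it.

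Levels of cell type markers were set beside these differences. The summed level of 10 neutrophil-like markers was, without IFN-β, 695 to 928 CPM in shControl against 1153 to 1450 CPM in sh*Ppargc1b* libraries, and 575 to 750.1 CPM against 1000.2 to 1238 CPM with IFN-β. *Mmp8* alone held 535 to 1360.2 CPM of it, while *Ly6g*, *Elane*, *Mpo*, *Camp* and *Prtn3* had at most 1.33 CPM each. In each treatment 2 of the 10 genes were higher in sh*Ppargc1b* cells, where 12.4% of all tested genes were higher without and 11.5% with IFN-β. For 10 macrophage-like markers the sums were 1390 to 1562 and 1177 to 1267 CPM without, and 2023 to 2252 and 1602 to 1850 CPM with IFN-β, with 4 genes lower and 1 higher in sh*Ppargc1b* cells without it and 6 lower and 1 higher with it, where 11.1% and 12.7% of all tested genes were lower. Of 9 tested dendritic-like markers 5 were higher in sh*Ppargc1b* cells in both treatments. The sums were 4616 to 5442 against 5426 to 6230 CPM in unstimulated cells and 4935 to 5955 against 5901 to 6729 CPM with IFN-β. These sums overlapped in both treatments. The 8 mast cell or basophil-like markers summed to 8.80 to 17.7 CPM in unstimulated shControl and 22.3 to 26.7 CPM in unstimulated sh*Ppargc1b* libraries, and to 7.84 to 16.1 and 13.0 to 22.4 CPM with IFN-β, where the groups overlapped, with 2 of 7 tested genes higher in each treatment. The 10 lymphocyte-like markers to at most 4.95 CPM, with 1 of 5 tested genes higher in each treatment, and the 7 erythroid-like markers to at most 0.311 CPM in any library, with *Hba-a2* at 0 counts in all. In bulk RNA, more cells of a type and more RNA per cell cannot be told apart, and the part of these markers in the differences of *Jak2*, *Stat2*, *Usp18*, *Socs3* and *Tyk2* was not tested.

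The change of the IFN-β response in the knockdown was tested as the interaction, the response in sh*Ppargc1b* minus that in shControl cells. Only *Jak2* passed, and it was lower in the knockdown by 0.37 ± 0.07 on the log2 scale (difference -0.37, 95% interval -0.51 to -0.23, adjusted p = 0.0205), where 0.730% of all tested genes passed (0.669% lower and 0.0603% higher). *Jak2* began 1.52-fold higher and ended 1.18-fold higher in sh*Ppargc1b* cells. The call of *Jak2* was lost without shControl unstimulated replicate 3 (adjusted p = 0.0869), sh*Ppargc1b* unstimulated replicate 1 (0.0535) or its replicate 3 (0.0632) and with library totals alone (0.0538), and the adjusted p of *Jak2* ranged from 3.5e-06 to 0.0869 over all alternatives, in each of which the difference was below 0. With DESeq2 in place of edgeR 4 genes passed: *Jak2*, *Stat2* (adjusted p = 0.00293), *Usp18* (adjusted p = 0.00402) and *Socs1* (adjusted p = 0.0372).

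For 8 of the 9 genes the difference was below 0, with a median of -0.18 against -0.00 over all tested genes, of which 50.2% were below 0. *Usp18* had the widest difference, -0.56 ± 0.13 (95% interval -0.85 to -0.28, adjusted p = 0.0717), and it passed without shControl unstimulated replicate 2 (-0.67, adjusted p = 0.0182) or sh*Ppargc1b* unstimulated replicate 1 (-0.63, adjusted p = 0.0435), and its adjusted p ran from 2.4e-12 to 0.240 across the alternatives. *Stat2* had -0.31 ± 0.07 (-0.46 to -0.16, adjusted p = 0.0534), passed without shControl unstimulated replicate 2 (-0.34, adjusted p = 0.0328) and ranged from 2.2e-04 to 0.194. *Socs1* had -0.33 ± 0.09 (-0.53 to -0.14, adjusted p = 0.125, range 0.00666 to 0.330). These 3 genes, which had the largest responses, missed the threshold over all genes while their 95% intervals, which are not adjusted, lay below 0. *Socs3* had -0.18 (-0.47 to 0.11, adjusted p = 0.728), *Ifnar1* had -0.13 (-0.28 to 0.01, adjusted p = 0.546), *Tyk2* had -0.11 (-0.24 to 0.02, adjusted p = 0.567) and *Ifnar2* had -0.07 (-0.25 to 0.11, adjusted p = 0.873). The response of *Jak1* differed by 0.0064 (-0.10 to 0.11, adjusted p = 0.985).

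**Figure D5:**
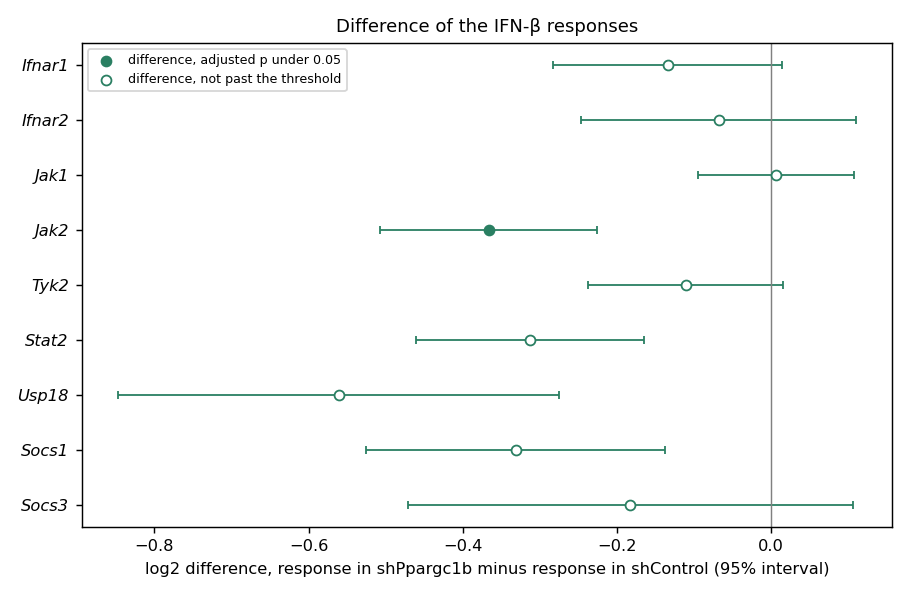
Difference of the log2 IFN-β responses, sh*Ppargc1b* minus shControl (x axis), for each gene with its 95% interval. Only *Jak2* is filled (adjusted p under 0.05), and the intervals of *Stat2*, *Usp18* and *Socs1* also lie below 0 but are not adjusted for the number of genes.

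Another 39 genes of cytokine signalling were listed for context, of which 38 were tested. With IFN-β 20 rose and 7 fell in shControl and 21 rose and 5 fell in sh*Ppargc1b* cells, with medians of 0.16 and 0.16. Of all tested genes 23.7% were higher and 24.6% lower in shControl, and 21.4% and 21.2% in sh*Ppargc1b* cells. Of the 8 other kinases, STATs and partners 6 rose in shControl and 7 in sh*Ppargc1b* cells and none fell. *Isg15*, the ubiquitin-like modifier that USP18 takes off proteins, went from 9.62 ± 1.56 to 300.3 ± 13.7 CPM in shControl and from 13.4 ± 1.83 to 272 ± 11.5 CPM in sh*Ppargc1b* cells, a rise of 4.96 ± 0.11 (adjusted p = 5.3e-15) in the former and 4.34 ± 0.10 (adjusted p = 2.2e-14) in the latter on the log2 scale. Its promoter is shown for comparison with *Socs1*, because it holds 3 overlapping ISRE matches, 78 to 57 bases before the start.
Isg15, chr4:156200850-156200921, minus strand: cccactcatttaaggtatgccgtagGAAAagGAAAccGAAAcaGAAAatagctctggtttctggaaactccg

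*Isg15* was the 1 gene of the 38 that passed the interaction test, with a difference of -0.62 ± 0.13 (adjusted p = 0.0489). The call was lost with library totals alone (adjusted p = 0.0735) and, leaving out libraries, without unstimulated shControl replicate 1 (0.118) or 3 (0.148), treated shControl replicate 1 (0.0545), 2 (0.109) or 3 (0.0804), unstimulated sh*Ppargc1b* replicate 2 (0.122) or 3 (0.149), and treated sh*Ppargc1b* replicate 1 (0.0832) or 3 (0.0928), in a range of 2.0e-12 to 0.149 over all alternatives. *Ifnb1*, the gene of IFN-β itself, passed the filter on low counts through treated libraries alone, so its rise, counted above, was fixed in advance. In shControl it was counted 1 time over the 3 unstimulated and 49 times over the 3 treated libraries. The depth-scaled ratio was 50.2 (counting interval 8.60 to 2024). In sh*Ppargc1b* libraries it was counted 7 and 62 times, a ratio of 10.7 (4.89 to 27.7). These intervals pool the 3 libraries of a group and leave out the spread between libraries. Of the 7 unstimulated sh*Ppargc1b* counts 6 were in replicate 2, without which the fitted log2 response of *Ifnb1* was 5.27 in place of 3.35. In shControl the response was 7.10 in place of 5.23 without unstimulated replicate 1, which held the only count. Both responses thus rested on single libraries. The largest falls were those of *Ifngr1*, the ligand-binding chain of the IFN-γ receptor (-0.53 ± 0.05 in shControl, adjusted p = 5.3e-07, and -0.37 ± 0.05 in sh*Ppargc1b* cells, adjusted p = 3.5e-05), and of *Skp2*, an F-box protein of ubiquitin ligases (-0.43 ± 0.08, adjusted p = 3.1e-04, and -0.37 ± 0.08, adjusted p = 0.0014). With library totals alone these falls were larger, -0.77 and -0.57 for *Ifngr1* and -0.67 and -0.57 for *Skp2*.

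In the comparison of hairpins 7 of the 38 genes rose and 7 fell without IFN-β, and 9 rose and 6 fell with it. Of all tested genes 12.4% were higher and 11.1% lower without, and 11.5% and 12.7% with IFN-β. *Ifnlr1*, the ligand-binding chain of the IFN-λ receptor, was, without IFN-β, at 1.79 ± 0.0868 CPM in shControl against 7.32 ± 1.31 CPM in sh*Ppargc1b* cells (2.03 ± 0.20, adjusted p = 3.6e-06), and 1.65 ± 0.434 against 5.62 ± 1.31 CPM with IFN-β (1.78 ± 0.21, adjusted p = 1.8e-05). *Stat4*, a transducer of interleukin-12 signals, was at 10.2 ± 0.832 and 20.3 ± 1.95 CPM without (0.99 ± 0.10, adjusted p = 2.7e-06) and at 14.8 ± 0.680 and 30.04 ± 3.80 CPM with IFN-β (1.02 ± 0.09, adjusted p = 2.3e-06). Among the falls without IFN-β were *Socs6* (-0.57 ± 0.06, adjusted p = 7.6e-06) and the phosphatase gene *Ptpn1* (-0.31 ± 0.04, adjusted p = 5.6e-05), and with IFN-β the interleukin-10 receptor chain *Il10ra* (-0.41 ± 0.05, adjusted p = 1.8e-05) and *Ptprc*, which encodes CD45 (-0.33 ± 0.04, adjusted p = 4.1e-05). The log2 differences of *Ifnlr1* and *Stat4* between hairpins exceeded those of each of the 9 genes in both treatments. These 2 genes were named for having the largest rises of the 38, so the choice favoured that order.

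The genes most like the feedback genes over the 12 libraries were ranked by Pearson's r of log2 CPM among 8750 genes, as a description, since all points share the treatment and the libraries. *Usp18* was most like *Oasl1*, *Oasl2* and *Ifit3b* (r = 0.999 each), and *Socs1* was most like *Ankfy1*, *Tspo* and *Tpst1* (r = 0.998 each). *Socs3* had lower values, from 0.976 for *Pcdh7*, followed by *Slc12a4*, to 0.971 for *Trip10*. The group means of *Pcdh7* had the same order as those of *Socs3*, with 69.5 CPM in shControl and 105 CPM in sh*Ppargc1b* cells without IFN-β and 111 and 144 CPM with it.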

How the data were processed

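RNA was measured in 12 libraries of mouse DCs. Per the labels and the study's methods, ribosomal RNA was depleted, reads were trimmed with Trim Galore 0.6.0, and STAR (2.7.8a in the submitters' processing notes) mapped them to GRCm38 (mm10) and counted them per GENCODE gene. The deposited values are raw counts, with no normalization. Whether counting used strand is not given in the sources used here, so overlapping genes are uncertain. All sample columns were used.

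Tests used edgeR 4.0.16 (R 4.3.3). Genes were kept by filterByExpr (minimum count 10, minimum total 15), which left 18228 genes with 99.96% of the counts, and libraries were scaled by TMM. All 12 libraries entered 1 quasi-likelihood fit with a mean for each of the 4 groups, and shared the dispersion. Adjusted p-values are from edgeR's quasi-likelihood F-test with Benjamini-Hochberg adjustment over all tested genes, with a threshold of 0.05. The standard error is the absolute log2 fold change divided by the square root of F. RPKM used union exon lengths of GENCODE M21. An exact permutation test of 3 libraries against 3 cannot go below 0.1 and was not used. The fit was also run on simulated data in which few genes changed, as many up as down. That run cannot test the scaling of these libraries, where many genes changed with IFN-β.

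Genes named in the text are the 9 genes, from the 39 other pathway genes the 2 largest rises and 2 largest falls past the threshold in each contrast, and the 3 genes most like *Usp18*, *Socs1* and *Socs3* in log2 CPM (prior count 2) among those with a mean of at least 3. *Il10rb*, *Ifngr2*, genes that overlap the 9 genes, and markers are named outside that rule. The 9 genes and the lists were chosen with earlier results of these data known. Alternatives were other scaling factors, all genes with a count, DESeq2 1.42.0, only the groups compared, a block for runs of library codes, a fold limit and leaving out each library.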

Additional observations from a re-analysis of the deposited data

Results flagged for a closer look

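The IFN-β response differed between sh*Ppargc1b* and shControl cells, by the interaction test in edgeR, for *Jak2*, with a difference of -0.37 on the log2 scale (adjusted p = 0.0205). *Isg15* also passed, with a difference of -0.62 (adjusted p = 0.0489), close to the threshold. The call was lost in 4 of 18 alternatives for *Jak2* and in 10 of 18 for *Isg15*.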

How the results depend on the processing

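Over 45 results of the 9 genes and 18 alternatives each, 774 of 810 values kept their direction and their side of the threshold, 7 lost the call, 19 gained it and 10 changed sign. The sign changes were in uncalled values near 0. When calls also had to reach 1 in absolute log2 size, 3 of the 9 genes passed for IFN-β in shControl, 3 in the knockdown cells, and 0 in each knockdown comparison and in the interaction. The share of all tested genes that reach this limit is not given here, so these counts have no background beside them. The interaction count, 1 as reported, was 2 with median-ratio factors, 0 with library totals alone, 4 with all genes that had at least 1 count, 4 with DESeq2 and 4 with the replicate block for each run of library codes (*Jak2*, *Stat2*, *Usp18* and *Socs1* in the last 3), and 0 to 3 when 1 library was left out. Leaving out 1 library gave 9 to 9 genes for IFN-β in both kinds of cell, 4 to 5 for the knockdown without and 2 to 3 with IFN-β. Without 1 library the knockdown effect with IFN-β was -0.061 to 0.053 for *Ifnar2* and -0.034 to 0.044 for *Usp18*, and the interaction of *Jak1* was -0.022 to 0.039, and -0.0030 with all genes that had a count. In the interaction over all genes 133 passed as reported, 151 with median-ratio factors, 84 with library totals, 525 with all counted genes, 394 with DESeq2 and 425 with the block. The cause was not tested. With library totals 23.9% of the genes that passed for IFN-β in shControl were higher (49.0% with TMM), and 23.7% in sh*Ppargc1b* cells (50.2% with TMM). Library codes fall in 3 runs of 4, 1 of each group. Deviations from group means correlated at 0.028 to 0.15 (median 0.087) in the 18 same-run pairs. In pairs of different run and group the median was -0.044, and all 12 libraries correlated best with their own run. The labels do not say that a run is a batch or a pairing, so the block was kept as an alternative. The interaction calls depend on that choice. Under the block *Socs1* also passed in both knockdown comparisons (adjusted p = 0.0168 and 0.0329). *Jak1* passed without IFN-β with library totals (adjusted p = 0.0478). Libraries held 49.9 to 77.7 M counts, and what depth adds to the errors was not tested.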
